A study of Mus musculus with 23 samples.

Results

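The measurements described here compare the rim of an ear wound in mice homozygous for the cub allele of Rhbdf2 (genotype Rhbdf2cub/cub on the strain B6.Cg-Rhbdf2cub/J, called cub below) at 24 h and at 2 h after wounding. The arrays were chosen by sample title alone, which gave 3 arrays at 24 h and 3 at 2 h out of 23 in the series. All mice were 4 weeks old and, per the series' design text, female, with 3 mice for each time point. A hole of 2 mm was punched through the pinna, and the ring of skin 1 mm wide around it was later cut out with a punch of 3 mm, so each RNA sample mixes epidermis, dermis, cartilage, muscle, hair follicles and incoming blood cells. The same 2 times in C57BL/6J mice with the genotype Rhbdf2+/+ (wild type, 3 arrays each) served for the test of whether a change differed between genotypes. The 3 cub arrays of ear tissue at 0 h give a baseline only, because the labels record neither a hole nor a biopsy size for them. The cub allele is carried by every cell of these mice, and the labels name no sorted cell type.

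iRhom2, the product of Rhbdf2, has lost the protease activity of rhomboids and escorts the protease ADAM17 to the cell surface, where ADAM17 releases TNF and several ligands of the epidermal growth factor (EGF) receptor. The cub (curly bare) allele encodes a shortened iRhom2, and cub mice are known for sparse hair and for rapid closure of ear holes. A skin wound passes from a burst of immediate early transcription through the arrival of neutrophils and monocytes to the migration of keratinocytes over the gap, and the samples at 2 h and 24 h fall on either side of much of that sequence.

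Signals are deposited log2 values, so a difference of 1 is a 2-fold change. The fit was limma over all 23 arrays. "Rose" and "fell" are used only of genes with a Benjamini-Hochberg adjusted p below 0.05 over 19938 genes tested. Errors of a difference are standard errors from that fit, errors of a group are SDs over 3 arrays, and every difference is 24 h minus 2 h unless another is named. The 6 cub arrays separated by time: the correlation over genes was 0.996 to 0.998 between arrays of one time and 0.969 to 0.977 between times. Array medians lay between 6.37 and 6.46. The second array at 2 h stood apart in the mean level of cell division genes (7.39, against 7.75 and 7.79 in the others). It also did so for adipocyte genes (8.45, against 7.91 and 7.87), and both lists are given with and without it. It was low for DNA replication genes too (7.5, against 7.82 and 7.76), a list given only with that array. The labelled tissue was borne out by keratin 14, the basal keratinocyte keratin, which measured 12.67 to 12.70 at 2 h and 12.86 in each Krt14 value at 24 h. Whole-gene Rhbdf2 signal does not check the genotype, since the position of its probes relative to the cub change was not used here. In bulk tissue, fewer cells of a type and less RNA per cell cannot be told apart.

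From 2 h to 24 h, 8412 of 19938 genes changed in cub, 42.2% of those tested. Of these, 3755 rose (18.8%) and 4657 fell (23.4%). At least 2-fold changes were seen for 861 genes (4.32%), 451 upward (2.26%) and 410 downward (2.06%), and the values of the 3 arrays at each time did not overlap for 9424 genes (47.3%). These shares are given as the background for the counts of each gene list. The lists were chosen with earlier results of these data known, so their counts are descriptions and not tests. The median difference over all genes was 0.01 and the median standard error 0.08. The number of arrays limits the precision, and the smallest difference past the threshold was 0.11.

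**Figure D1:**
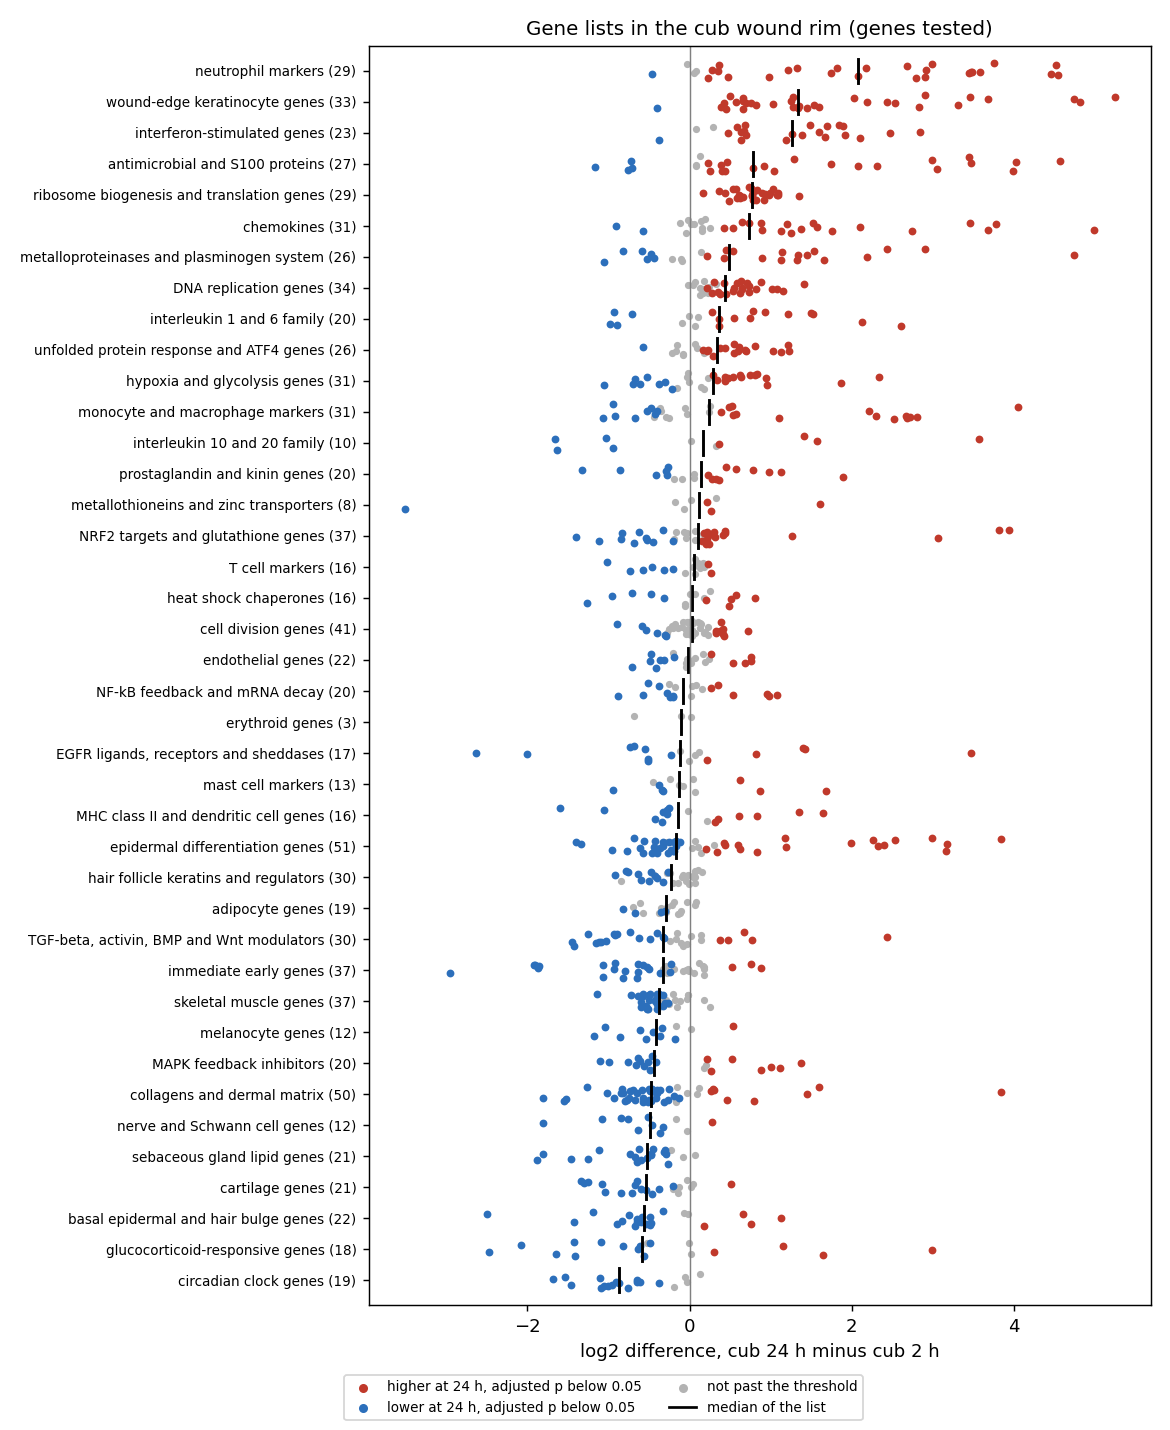
Log2 difference (cub 24 h minus cub 2 h, horizontal axis) of every tested gene in 40 lists of genes, 1 line per list with the number tested in parentheses. Red points rose, blue points fell, grey points did not pass the threshold and the black bar is the list's median, which runs from 2.07 for neutrophil markers to -0.87 for circadian clock genes.

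The genes with the largest changes are given first, and the cells that express them were not measured. Keratin 6b, a keratin of activated keratinocytes, gave Krt6b values of 7.71, 7.78 and 7.97 at 2 h and 13.01, 13.04 and 13.15 at 24 h. Every 24 h array lay far above every 2 h array, a difference of 5.25 ± 0.44 (limma adjusted p = 3.57e-09). The chemokine Cxcl5, which attracts neutrophils, measured 5.01, 4.99 and 5.08 against 9.80 to 10.23 (difference 4.98 ± 0.10, adjusted p = 1.21e-18), near the bottom of the scale at 2 h. Csta3, a stefin-type protease inhibitor, rose by 4.97, the natriuretic peptide gene Nppb by 4.80 and Acod1, which makes itaconate in activated myeloid cells, by 4.73. At the other end stood metallothionein 4 (Mt4, -3.51), the early transcription factor Fosb (-2.95), the epidermal lipoxygenase Alox12e (-2.88), the guidance factor Sema3d (-2.78) and Skint4, a gene of a family that shapes skin gamma-delta T cells (-2.75). All of these passed the test, and none of their arrays overlapped between times. Krt6a and Krt6b, the stefins and the Sprr2 genes have near-identical copies, so their probe sets may share signal.

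Immediate early genes code for transcription factors and signal dampers that cells switch on within minutes of a stimulus without making new protein. Of 37 tested, 20 fell between 2 h and 24 h, 3 rose and 14 did not pass the test, with a median of -0.33 (23.4% of all genes fell). The mean level of the list over its genes was 9.66 to 9.70 in the 2 h arrays and 9.09 to 9.34 at 24 h, against 8.30 to 8.49 at 0 h. Fosb, a partner of Jun in AP-1, measured 11.08, 10.97 and 11.42 at 2 h and 7.74, 8.18 and 8.69 at 24 h, around its 0 h level of 8.18 ± 0.39 (SD, n = 3). The arrays of the times did not overlap, and Fosb fell by 2.95 ± 0.34 (limma adjusted p = 2.5e-07). The orphan nuclear receptor Nr4a1 stood at 11.48, 11.45 and 11.50 and then at 9.19, 9.65 and 10.02. All 24 h values lay below the 2 h values but above the Nr4a1 mean at 0 h of 8.49 ± 0.36, and the difference was -1.86 ± 0.29 (adjusted p = 1.36e-05).

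Other early regulators went the same way. Nr4a2 fell by 1.87, Gem, a small GTP-binding protein, by 1.92, and the stress factor Atf3 by 1.91. Fos measured 9.92, 9.93 and 9.93 at 2 h and 8.64, 8.64 and 9.29 at 24 h, a fall in every array (-1.07 ± 0.26, limma adjusted p = 0.00174). The MAP kinase phosphatase Dusp1 fell from 12.04, 12.04 and 12.01 to 11.29, 11.21 and 11.67, and the antiproliferative gene Btg2 from 10.85, 10.84 and 10.74 to 9.66, 9.66 and 10.30. For Fos, Dusp1 and Btg2 the third 24 h array was the highest of its group and still below every 2 h array. Myc fell by 0.50 and Jun by 0.82. In contrast, the activity-regulated gene Arc rose from 8.80, 8.70 and 8.60 to 9.62, 9.38 and 9.73, and Ier5 (0.75) and Ier3 (0.53) rose as well. Fosl1, the AP-1 member Fra-1, which was 2.84 higher at 2 h than at 0 h, overlapped between times (9.84, 9.96 and 10.10 at 2 h, 9.94, 10.03 and 9.81 at 24 h, adjusted p = 0.866). Egr1 gave -0.28 with an adjusted p of 0.125.

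The promoters of 4 early genes are shown because each fell and carries a cyclic AMP response element (CRE, TGACGTCA) or its shorter variant TGCGTCA, read on either strand, in the 250 bases before the RefSeq start (build GRCm38.p6). Capitals mark the matches. The Nr4a1 window is chr15:101266596-101266845 on the plus strand, that of Fosb chr7:19310046-19310295, that of Dusp1 chr17:26508473-26508722 and that of Btg2 chr1:134079156-134079405, the last 3 on the minus strand and printed in the gene's own direction.
Nr4a1: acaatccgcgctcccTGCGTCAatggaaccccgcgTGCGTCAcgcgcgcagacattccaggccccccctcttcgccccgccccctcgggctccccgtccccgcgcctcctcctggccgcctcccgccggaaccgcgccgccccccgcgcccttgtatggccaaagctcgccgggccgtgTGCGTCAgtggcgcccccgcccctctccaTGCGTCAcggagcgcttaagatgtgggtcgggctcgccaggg
Fosb: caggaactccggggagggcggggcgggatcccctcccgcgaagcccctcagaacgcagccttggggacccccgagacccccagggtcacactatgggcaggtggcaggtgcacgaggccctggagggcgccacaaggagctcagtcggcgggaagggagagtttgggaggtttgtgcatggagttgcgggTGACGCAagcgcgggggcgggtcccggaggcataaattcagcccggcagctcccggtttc
Dusp1: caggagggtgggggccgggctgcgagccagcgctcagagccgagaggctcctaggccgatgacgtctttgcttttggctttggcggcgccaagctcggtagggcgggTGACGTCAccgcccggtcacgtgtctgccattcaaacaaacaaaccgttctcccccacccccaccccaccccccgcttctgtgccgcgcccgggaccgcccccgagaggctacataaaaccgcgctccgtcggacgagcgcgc
Btg2: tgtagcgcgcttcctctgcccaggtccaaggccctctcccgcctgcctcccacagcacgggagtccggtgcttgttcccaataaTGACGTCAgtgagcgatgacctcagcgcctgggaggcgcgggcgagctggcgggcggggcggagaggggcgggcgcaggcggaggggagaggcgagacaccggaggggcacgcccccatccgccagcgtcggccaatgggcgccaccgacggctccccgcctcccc
The Nr4a1 window holds 4 copies of the variant, starting 235, 215, 71 and 42 bases before the start, and Fosb 1 copy at 60. Dusp1 holds the full element at 143 bases and Btg2 at 166.

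Over the list, a window from 250 bases before to 50 after the start was searched for each gene with a RefSeq promoter entry. The full CRE was found in 3 of the 18 fallen early genes with an entry (Maff, Btg2 and Dusp1) and in 1 of 7 that did not pass the test, against 2.03% of all 27025 genes. The variant occurred in 2 of 18 fallen genes and 1 of 7 others, against 2.42% of all genes. A CArG box, the serum response factor motif, was found only in Egr2 among the 18 (1.81% of genes), a gene whose fall was called in 6 of 15 alternative settings, and the AP-1 letters TGAGTCA in none of the 18 and 1 of the 7 (5.95% of genes). These matches describe letters in a window and no binding was measured.

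Inhibitors that feed back on MAP kinase signalling split. Of 20 tested, 7 rose and 11 fell (median -0.44, -0.29 without the first 2 h array). Dusp6, the phosphatase of ERK kinases, rose from 9.76, 9.69 and 9.66 to 11.15, 11.01 and 11.07, with no overlap (1.37 ± 0.13, limma adjusted p = 2.96e-08). Phlda1 rose by 1.12, Spred3 by 1.01 and Dusp5 by 0.89, while the receptor inhibitors Lrig3 (-1.11) and Lrig1 (-0.66), the phosphatase Dusp8 (-0.99) and Spry1 (-0.76) fell. Among 20 genes that restrain NF-kB or destabilise cytokine mRNAs, 6 rose and 8 fell, with a median of -0.08; without the first 2 h array, 5 fell. Bcl3, a nuclear partner of NF-kB, measured 9.52, 9.61 and 9.34 at 2 h and 10.57, 10.54 and 10.60 at 24 h (1.08 ± 0.14, adjusted p = 1.41e-06), and Nfkbie (0.98) and Traf1 (0.96) rose with it. The mRNA-decay factors Zc3h12c (-0.88), Zfp36 (-0.57) and Zc3h12a (-0.38) and the subunit Rel (-0.51) fell. The letters of a kappa B site (GGGA, any base, TT, any base, CC, read on both strands) were found in 2 of 5 genes that rose with a promoter entry (Nfkb2 and Bcl3), in 3 of 7 that fell (Nfkbia, Rel and Tnip3) and in 1 of 5 not past the test, against 1.38% of all genes. Tnip3 kept its call in 5 of 14 alternative settings, and Nfkbia lost its own without the first array of either time.

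Ligands of the EGF receptor family moved in opposite directions. Epigen (Epgn) measured 8.13, 8.39 and 8.10 at 2 h and 11.77, 11.60 and 11.67 at 24 h, above its 0 h level of 6.61 ± 0.44 at both times. The rise of 3.47 ± 0.16 (11.1-fold, limma adjusted p = 6.54e-13) had no overlapping arrays. Transforming growth factor alpha (Tgfa) rose from 8.81, 8.76 and 8.65 to 10.34, 10.09 and 10.07, a difference of 1.43 ± 0.11. Heparin-binding EGF-like growth factor (Hbegf), already 2.27 above 0 h at 2 h, rose further from 9.91, 9.88 and 9.99 to 10.77, 10.84 and 10.62 (0.82 ± 0.13). Neuregulin 1, a ligand of ErbB3 and ErbB4, rose from Nrg1 values of 6.10, 6.20 and 6.23 to 7.42, 7.86 and 7.45.

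The opposite was seen for betacellulin and epiregulin. Betacellulin fell from Btc values of 9.47, 9.16 and 9.29 to 6.72, 6.59 and 6.71. Btc fell by 2.63 ± 0.19 (6.20-fold, limma adjusted p = 2.57e-10), to below the 0 h level of 9.04 ± 0.11. Epiregulin (Ereg) stood at 9.45, 9.65 and 9.48 at 2 h, above its 0 h mean of 8.52 ± 0.17, and at 7.43, 7.64 and 7.5 at 24 h, below it (-2.0 ± 0.21, adjusted p = 6.66e-08). Nrg4, a ligand of ErbB4, fell by 0.73. Of 17 ligands, receptors and sheddase genes tested, 5 rose and 8 fell, and Areg, which encodes amphiregulin, was not analysed here.

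Receptors and the shedding machinery moved less. Erbb2 fell by 0.55 and Erbb3 by 0.52, and Egfr rose by 0.22 ± 0.06 (limma adjusted p = 0.00839), a call that was lost without the second 2 h array (0.18, adjusted p = 0.0519). Rhbdf2 itself measured 9.14, 8.93 and 8.93 at 2 h and 8.45, 8.30 and 8.20 at 24 h, with every later array below every earlier one (-0.68 ± 0.09, adjusted p = 1.31e-06). The wild-type Rhbdf2 values were 9.03, 8.95 and 9.02 and then 8.57, 8.85 and 9.01 (-0.19, adjusted p = 0.0931). The difference between the genotypes of -0.49 ± 0.12 did not pass the test (adjusted p = 0.0703). Its relative Rhbdf1 fell by 0.51. Adam17 lay between 9.94 and 10.03 in all 6 cub arrays, so the times overlapped completely (adjusted p = 0.974).

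**Figure D2:**
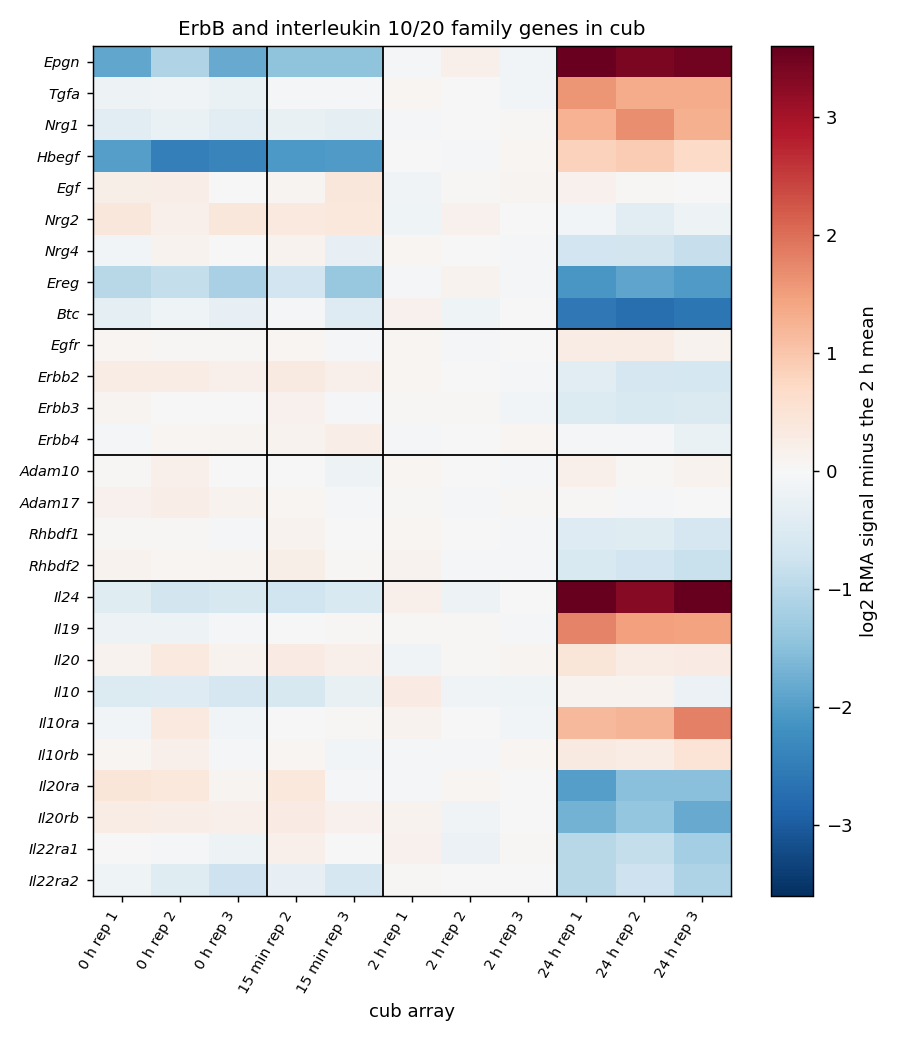
Log2 signal minus the cub 2 h mean (colour, red above and blue below) for EGF receptor family and interleukin 10 and 20 family genes, 1 column per cub array from 0 h to 24 h. Epgn and Il24 are the reddest lines at 24 h, with differences of 3.47 and 3.57, and Btc the bluest at -2.63.

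Cytokines of the interleukin 20 group signal from leukocytes and keratinocytes to receptors on keratinocytes. Il24 was near the bottom of the scale at 2 h (5.69, 5.33 and 5.53) and reached 9.16, 8.78 and 9.33 at 24 h. No array overlapped, and the rise was 3.57 ± 0.11 (11.9-fold, limma adjusted p = 7.64e-16). Il19 rose from 5.55, 5.56 and 5.45 to 7.31, 7.0 and 6.98, whereas Il20 gave 0.33 (adjusted p = 0.0611) and is not past the test. The receptor chains went down: Il20ra from 8.65, 8.76 and 8.67 to 6.72, 7.19 and 7.18, and Il20rb from 10.14, 9.87 and 10.02 to 8.31, 8.63 and 8.19. Both chains of the heterodimer that binds these cytokines were therefore lower in every 24 h array than in any 2 h array (-1.66 ± 0.13 and -1.63 ± 0.09). Il22ra1 (-1.03) and the decoy receptor Il22ra2 (-0.95) also fell, and the leukocyte receptor Il10ra rose by 1.41. The list thus held 4 genes that rose and 4 that fell of 10.

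Among 20 genes of the interleukin 1 and 6 families, 12 rose (60%, against 18.8% of all genes) and 4 fell (20%, against 23.4%). The median was 0.36. Interleukin 1 beta had risen by 3.99 from 0 h to 2 h and rose again, from Il1b values of 9.07, 9.20 and 9.42 to 11.57, 11.72 and 12.23 (2.61 ± 0.24, limma adjusted p = 1.55e-08). Oncostatin M (Osm) rose by 2.13, Il1a by 1.52 and the alarmin Il33 from 9.31, 9.25 and 9.49 to 10.97, 10.58 and 11.01. Il6 did not follow them. Its values of 9.21, 8.68 and 9.14 at 2 h overlapped 8.85, 8.70 and 9.80 at 24 h (0.11, adjusted p = 0.752), and both times lay far above the Il6 level at 0 h of 4.51 ± 0.12. Il18 (-0.99), Il1f5, which antagonises interleukin 36 (-0.93), and the receptors Lifr (-0.90) and Il6ra (-0.71) fell. Outside the list, the epithelial cytokine Tslp rose by 2.52 and Tnf by 1.59. Neutrophil and monocyte markers rose over the same interval, with mean levels given below, and their part in these cytokine changes was not tested.

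Of 31 chemokines, 19 rose and 2 fell, with 13 up at least 2-fold (2.26% of all genes) and a median of 0.74. Cxcl2 measured 8.01, 7.19 and 8.01 at 2 h and 11.29, 11.39 and 11.88 at 24 h, with no overlap (3.78 ± 0.25, limma adjusted p = 8.39e-11). Ccl3 rose from 8.04, 8.11 and 7.87 to 11.59, 11.51 and 11.96, and Cxcl3 rose by 3.46. The interferon-induced Cxcl10 rose by 2.10. The monocyte chemokines changed less over this interval: Ccl2 rose by 0.89, and Ccl7, which had already gained 3.68 from 0 h to 2 h, by 0.42, a call that was lost without the first or the third 2 h array or the third 24 h array (0.32 to 0.40). The eosinophil chemokine Ccl24 (-0.91) and the membrane-bound Cx3cl1 (-0.58) fell.

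Neutrophil markers were the list with the highest median. Of 29 tested, 25 rose and 1 fell, the median was 2.07, and 19 rose at least 2-fold. The mean level of the list was 6.28 to 6.4 at 0 h, 7.02 to 7.13 at 2 h and 8.94 to 9.29 at 24 h. The lectin receptor Clec4e measured 5.90, 5.49 and 5.80 and then 10.15, 9.97 and 10.43 (4.45 ± 0.14, limma adjusted p = 7.58e-16). S100a8, a subunit of calprotectin, measured 8.06, 7.89 and 8.40 and then 11.45, 11.61 and 11.69, and Ly6g, the surface marker used to sort mouse neutrophils, 4.56, 4.64 and 4.66 and then 6.60, 6.71 and 6.77. For all 3 genes the lowest 24 h array exceeded the highest 2 h array. The receptor Cxcr2 rose by 2.79 and the stefins Stfa3 and Stfa2 by 4.54 and 4.52. The granule genes of the list differed: Lcn2 (2.99), Mmp8 (1.33), Ngp (0.47) and Ltf (0.23) rose, and Mpo, Elane and Camp, the members not past the test, gave -0.03 to 0.08. The Ltf call was lost without the first 2 h array or the third 24 h array (adjusted p up to 0.0987). The gene that fell, Asprv1 (-0.47), is also an epidermal protease gene and stands on the differentiation list too.

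Monocyte and macrophage markers went both ways. Of 31 tested, 14 rose (45.2%, against 18.8% of all genes) and 8 fell (25.8%, against 23.4%), so the share that fell was near that of all genes. The median was 0.24, and 9 rose at least 2-fold. Chil3, a chitinase-like protein of inflammatory monocytes, went from 4.31, 4.37 and 4.37 to 8.13, 8.52 and 8.54, from the floor of the scale to clearly above it (4.05 ± 0.14, limma adjusted p = 2.75e-15). The Fc receptor Fcgr4 (2.80), Plac8 (2.72), the endotoxin co-receptor Cd14 (2.68) and the monocyte chemokine receptor Ccr2 (2.67) rose as well. The members with the deepest falls were Retnla (-1.07), the lectin gene Mgl2 (-0.95) and Gpnmb (-0.92), which pigment cells also express. Among receptors of tissue macrophages, Cd163 (0.52) and Mrc1 (0.57) rose, calls that held in 14 and 13 of 15 alternatives (both lost without the third 2 h array), and Lyve1 gave 0.24 (adjusted p = 0.164). Retnla lost its call without the second 2 h array (-0.89, adjusted p = 0.0537) or the first 24 h array (-0.87, adjusted p = 0.0611). The count of 8 that fell became 4 without the first or second array of either time. Csf1r, carried by all these cells, gave -0.25 (adjusted p = 0.0636).

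Other leukocyte lists moved less uniformly. The Langerhans cell lectin langerin fell from Cd207 values of 8.55, 8.59 and 8.56 to 7.19, 6.94 and 6.78, all lower (-1.6 ± 0.10, limma adjusted p = 2.91e-11), and Cd83 fell by 1.05, while the costimulator Cd80 (1.64) and the actin bundler Fscn1 (1.35) rose. Among 16 genes of antigen presentation 6 rose and 8 fell. Of 16 T cell markers 2 rose and 6 fell, the receptor chains Cd3g (-0.74) and Cd3e (-0.57) among the latter; 1 rose without the first 2 h array or the first 24 h array and 0 without the third 2 h array. Gata3, which T cells share with keratinocytes and hair follicle cells, fell from 10.80, 10.88 and 10.77 to 9.78, 9.92 and 9.71. Mast cell markers showed 3 rises (23.1%) and 4 falls (30.8%) of 13, against 18.8% and 23.4% of all genes. Histidine decarboxylase (Hdc) rose by 1.68, the receptor Mrgprb2 fell by 0.95 and the chymase Cma1 gave -0.08. The number of mast cell markers that fell was 2 without the first or second 2 h array or the second 24 h array.

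Interferon-stimulated genes rose together. Of 23 tested 20 rose, 1 fell and the median was 1.27; the mean level of the list was 6.26 to 6.34 at 2 h, no higher than the 6.31 to 6.44 of 0 h, and 7.39 to 7.70 at 24 h. Viperin (Rsad2), which blocks viral replication, measured 5.52, 5.77 and 5.59 and then 8.18, 8.15 and 9.09, with the third 24 h array well above the others and no overlap (2.85 ± 0.25, limma adjusted p = 4.56e-09). Ifit1 rose by 2.47, Ifit3 by 1.92 and the transcription factor Irf7 by 1.49. Irf1, which early inflammatory signals induce directly, fell by 0.38 on its main probe set and by 0.18 on another (adjusted p = 0.184).

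Keratinocytes at a wound edge change their keratins, integrins and proteases to migrate. Of 33 genes of that programme 32 rose, 21 of them at least 2-fold, with a median of 1.33, and the 24 h and 2 h arrays did not overlap for any of the 33. Keratin 16 rose from Krt16 values of 7.5, 7.75 and 7.42 to 12.42, 12.34 and 12.35 (4.81 ± 0.52, limma adjusted p = 1.21e-07). Collagenase 3 (Mmp13) rose from 5.47, 5.61 and 5.34 to 10.49, 9.89 and 10.27 (4.74 ± 0.20). Both were low in every 2 h array and high in every 24 h array. Krt6a rose by 3.68, the integrins Itga3 by 1.03, Itga6 by 0.66 and Itgb4 by 0.76, and Krt17 by 1.25. The chromatin protein Hmga2 rose from 6.44, 6.77 and 6.63 to 8.58, 8.83 and 8.52. Fibronectin (Fn1), on the list and also a dermal matrix gene, fell by 0.41.

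Differentiation genes of the epidermis went both ways. Of 51 tested, 18 rose and 26 fell, with 11 up and 2 down at least 2-fold and a median of -0.17. Grouped by symbol after the values were seen, the small proline-rich Sprr genes gave 8 rises and no fall of 10, and the late cornified envelope genes of the Lce3 cluster 5 rises of 5, while those of the Lce1 cluster gave 5 falls of 5. Of the 11 at least 2-fold rises, 6 were Sprr genes, 4 were Lce3 genes and the other was the transglutaminase Tgm3 (1.18). Sprr2d measured 6.52, 6.87 and 6.73 at 2 h and 10.56, 10.37 and 10.73 at 24 h (3.85 ± 0.36), and Sprr2e (3.18), Lce3e (3.17) and Sprr2f (2.99) followed with no overlap between times. The filaggrin relative Flg2 fell from 11.78, 11.76 and 11.80 to 10.29, 10.73 and 10.11 (-1.40 ± 0.14), and Krt23 (-1.33), Krt78 (-0.95) and Lce1b (-0.78) fell too. The main suprabasal keratins showed small differences. Krt1 gave 0.07 (limma adjusted p = 0.695) and Krt10 -0.12 (adjusted p = 0.0427), a call that was lost without any of 5 single arrays and under 4 other settings.

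Basal and hair bulge genes fell in 16 of 22 and rose in 4, with a median of -0.56. Keratin 15, a keratin of basal and bulge cells, fell from Krt15 values of 11.90, 11.68 and 11.75, which overlapped the 0 h arrays, to 9.21, 9.66 and 8.97 (-2.5 ± 0.12, limma adjusted p = 1.02e-12). The BMP and Wnt inhibitor Sostdc1 fell by 1.42, the stem cell receptor Lgr6 by 1.19 and Dkk3 by 0.90. Krt5 gave -0.07 (adjusted p = 0.184) and Krt14 rose by 0.18, so the pan-basal keratins and Krt15 differed in their course. Sebaceous gland lipid genes fell in 18 of 21 and rose in none (median -0.52), led by the melanocortin receptor Mc5r (-1.88) and the desaturase Scd3 (-1.80). The hair keratin and regulator list had 11 falls of 30 and no rise.

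**Figure D3:**
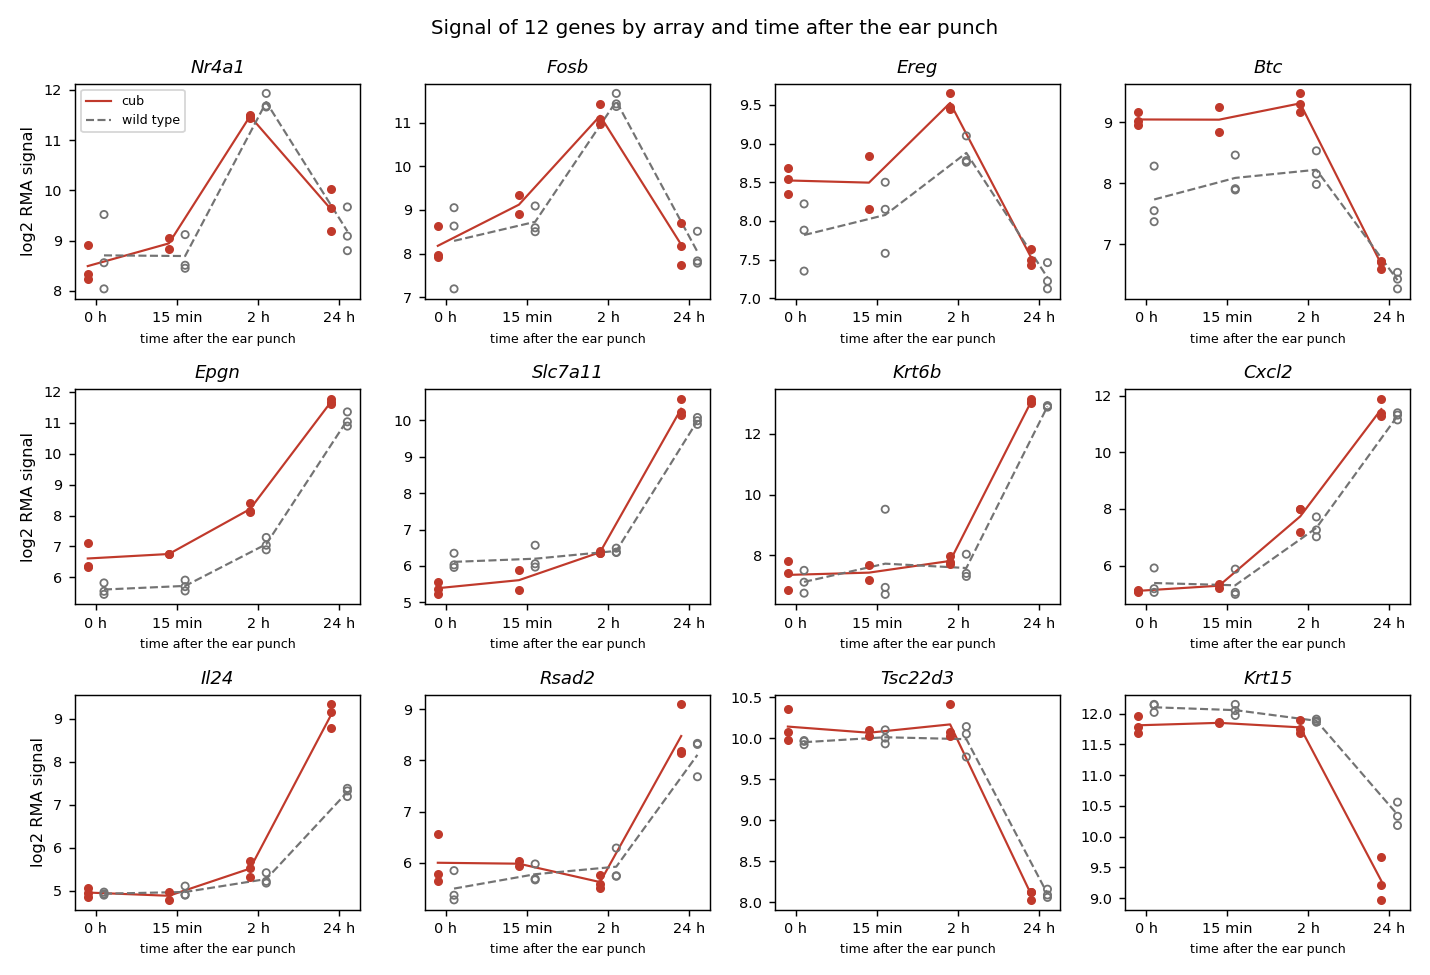
Log2 signal (vertical axis) of 12 genes in each array against time after the ear punch, with equal spacing of the 4 times; filled red points are cub, open grey points wild type, and lines join group means. Nr4a1 and Fosb peak at 2 h, Btc and Krt15 drop only after 2 h, and in Il24 the 24 h cub arrays (8.78 to 9.33) lie above those of wild type (7.19 to 7.38).

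NRF2 is the transcription factor that answers oxidative stress by switching on glutathione and detoxification genes. Of 37 of its targets and glutathione genes tested, 17 rose and 11 fell, with a median of 0.11 against 0.01 over all genes tested. A few members rose strongly. The cystine transporter Slc7a11 went from 6.37, 6.36 and 6.4 to 10.14, 10.23 and 10.59 (3.94 ± 0.15, 15.4-fold, limma adjusted p = 1.77e-14). The glutathione transferase Gsta4 rose from 8.03, 8.05 and 7.98 to 11.95, 11.64 and 11.93 (3.82 ± 0.09), and the aldo-keto reductase Akr1b8 from 7.79, 7.54 and 7.57 to 10.72, 10.65 and 10.72. Each was flat across its 2 h arrays and high in every 24 h array. Glutathione reductase (Gsr) rose by 1.27.

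The canonical NRF2 readouts changed by less. Hmox1, heme oxygenase, gave 0.44 (limma adjusted p = 0.0195) and lost its call without the third 2 h array (0.26) or the second 24 h array (0.385). Nqo1 gave 0.31 (adjusted p = 0.0337) and lost its call when any one of 5 cub arrays was left out, with adjusted p of 0.051 to 0.233, and kept it without the third 24 h array. Srxn1 rose by 0.44, Gclm by 0.24 and Nfe2l2, the gene of NRF2 itself, by 0.24, whereas Gclc fell by 0.32 and Keap1 gave -0.03 (adjusted p = 0.801). Ephx1 (-1.40), Gstm1 (-1.12) and Me1 (-0.84) fell. The antioxidant response element letters TGACNNNGC, on either strand, were found in 5 of 14 promoters of members that rose, 3 of 9 that fell and 3 of 8 not past the test, against 14% of all genes. Of the metal-binding genes, Mt4, a metallothionein of stratified epithelium, fell from 11.53, 11.64 and 11.64 to 8.14, 8.36 and 7.77, the deepest fall of all genes (-3.51 ± 0.11, adjusted p = 4.9e-16). Mt2 lay between 12.87 and 12.98 (adjusted p = 0.811), and the zinc importer Slc39a14 rose by 1.6.

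DNA replication genes rose in 23 of 34 and fell in none, with a median of 0.43. The mean level was 7.5 to 7.82 at 2 h and 8.08 to 8.27 at 24 h. The second 2 h array had the lowest mean (7.5, against 7.82 and 7.76), and this list is given only with it. The repressor E2f8 rose from 7.71, 7.0 and 7.71 to 8.95, 8.86 and 8.84 (1.41 ± 0.13) and the ribonucleotide reductase subunit Rrm2 from 8.68, 7.96 and 8.57 to 9.68, 9.49 and 9.49. In both, the second 2 h array was the lowest and the 24 h arrays lay close together above all 2 h arrays. The helicase subunits Mcm3 and Mcm6 rose by 1.02 and 0.55. The Mcm6 promoter is printed because replication genes of the list often held E2F letters. It lies at chr1:128359706-128359955 on the minus strand of GRCm38.p6, and capitals mark 3 matches, 2 of which overlap, starting 110, 106 and 47 bases before the start.
Mcm6: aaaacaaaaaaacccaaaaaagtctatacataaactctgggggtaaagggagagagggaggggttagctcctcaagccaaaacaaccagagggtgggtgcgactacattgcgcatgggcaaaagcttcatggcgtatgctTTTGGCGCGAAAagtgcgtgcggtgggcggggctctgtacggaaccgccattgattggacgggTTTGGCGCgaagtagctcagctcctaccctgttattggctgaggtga
The E2F letters searched were TTTCCCGC, TTTCGCGC, TTTGCCGC and TTTGGCGC on both strands. They were found in 9 of 20 members that rose with a promoter entry (Mcm3, Mcm5, Mcm6, Mcm7, Cdc6, Cdt1, Orc1, Uhrf1 and Hells) and in 3 of 10 that did not pass the test, against 2.6% of all genes. The rise of Cdc6 was not called without the third 2 h or the first 24 h array.

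Most genes of mitosis and cell division did not pass the test. Of 41 tested, 27 were not past it, 8 rose (19.5%) and 6 fell (14.6%), with a median of 0.03. Over all genes 18.8% rose and 23.4% fell. Mki67, the proliferation antigen Ki-67, measured 9.30, 8.75 and 9.38 at 2 h and 8.98, 8.85 and 8.83 at 24 h, so the times overlapped (-0.26, limma adjusted p = 0.158; -0.45 and adjusted p = 0.00613 without the second 2 h array). Topoisomerase Top2a gave 0.12 (adjusted p = 0.494), and 0.28 on another probe set (adjusted p = 0.00397). The G1 cyclin Ccne1 rose from 7.43, 7.26 and 7.24 to 8.05, 8.03 and 8.0, and the mitotic kinase Plk1 rose by 0.41. Cyclin Ccnd2 fell by 0.89 and the spindle protein Nusap1 by 0.59. Leaving out the second 2 h array, which was low for this list, gave 4 rises, 11 falls and a median of -0.125. Without the first 24 h array 5 rose, and without the third array of either time 3 fell. CCAAT boxes were found in 6 of 7 members that rose with an entry, 3 of 4 that fell and 16 of 21 others, against 41.1% of all genes, and the cell cycle homology letters TTTGAA or TTCGAA in 5, 3 and 17 of these, against 21.7%.

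All 29 genes of ribosome biogenesis rose, with a median of 0.77 and 5 up at least 2-fold. Ornithine decarboxylase, the first enzyme of polyamine synthesis and a target of Myc, rose from Odc1 values of 9.31, 9.38 and 9.52 to 10.76, 10.78 and 10.71 (1.35 ± 0.13). Wdr12 (1.1), Utp20 (1.09) and Mybbp1a (1.07) rose, each with no overlap. The E-box letters CACGTG were found in 5 of the 23 with a promoter entry, against 8.09% of all genes. Genes of the unfolded protein response and amino acid stress rose in 17 of 26 and fell in 1, among them asparagine synthetase (Asns, 1.22), Sdf2l1 (1.21) and Mthfd2 (1.12). Of 31 hypoxia and glycolysis genes 16 rose (51.6%, against 18.8% of all genes) and 8 fell (25.8%, against 23.4%). The glucose transporter Slc2a3 (2.34) and the lactate exporter Slc16a3 (1.86) led the rises, and the collagen prolyl hydroxylase P4ha2 fell by 1.05. Heat shock chaperones showed 5 rises and 5 falls of 16, with the inducible Hspa1a down by 1.26 and the mitochondrial Hspd1 up by 0.81.

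Genes of the collagen-rich dermis fell in 36 of 50 and rose in 8 (median -0.47). Col1a1, the main chain of type I collagen, went from 12.19, 11.93 and 12.11 to 11.25, 11.46 and 11.31 (-0.74 ± 0.10), and Col3a1 fell by 0.69. Cthrc1, a secreted protein of activated fibroblasts, measured 9.57, 9.19 and 9.54 at 2 h, above 8.45 ± 0.16 at 0 h, and 7.97, 7.93 and 7.82 at 24 h, below it. Ogn (-1.54) and Mfap2 (-1.26) fell with it. The 3 hyaluronan synthases parted: Has3 rose from 5.57, 5.76 and 5.78 to 9.48, 9.52 and 9.62 (3.84 ± 0.11), Has2 rose by 1.45, and Has1, high at 2 h (8.90, 9.41 and 9.32 against 6.07 ± 0.15 at 0 h), fell to 7.02, 7.31 and 7.86. The wound matrix protein tenascin C (Tnc) rose by 1.6.

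Proteases of the matrix rose in 16 of 26 (61.5%, against 18.8% of all genes) and fell in 6 (23.1%, against 23.4%). Mmp9 rose by 2.91, Mmp3 by 2.44 and their inhibitor Timp1 by 2.18, while the inhibitors Timp4 (-1.06), Timp3 (-0.82) and Timp2 (-0.59) fell. Mmp1a rose from 4.78, 4.66 and 4.63 to 6.78, 6.60 and 6.57. Among 30 modulators of TGF-beta, activin, BMP and Wnt signalling 5 rose and 16 fell. Activin A was the exception in size: its subunit gene Inhba rose from 6.68, 6.66 and 6.52 to 9.10, 8.67 and 9.38 (2.43 ± 0.13), and its antagonist Fst rose by 0.67. Tgfb1 rose by 0.77 and Tgfb3 fell by 1.45, and the Wnt antagonists Sfrp2 (-1.25) and Dkk2 (-1.15) and the Wnt target Axin2 (-1.11) fell.

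Secreted defence proteins rose in 20 of 27 and fell in 4 (median 0.78). Beta-defensin 4, an antimicrobial peptide of inflamed epithelium, rose from Defb4 values of 4.95, 4.95 and 4.79 to 9.55, 9.25 and 9.60 (4.57 ± 0.11, limma adjusted p = 1.42e-17), and Saa3 (4.03) and Defb3 (3.99) rose with it, whereas the constitutive Defb1 fell by 1.16. Of 20 prostaglandin and kinin genes 10 rose and 6 fell. Cyclooxygenase 2 rose from Ptgs2 values of 9.31, 9.17 and 9.73 to 11.14, 11.14 and 11.62 (1.90 ± 0.33), after 6.42 ± 0.13 at 0 h, and the kinin receptor Bdkrb1 rose by 1.13. Alox12 fell by 1.33.

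Genes that glucocorticoids induce fell in 11 of 18 and rose in 4 (median -0.59). Zbtb16 measured 10.89, 10.75 and 10.62 at 2 h and 8.23, 8.35 and 8.25 at 24 h, around a 0 h level of 9.58 ± 0.12 that lay between them (-2.48 ± 0.07, limma adjusted p = 4.96e-16). Tsc22d3, the leucine zipper protein GILZ, fell from 10.41, 10.02 and 10.07 to 8.03, 8.13 and 8.12, and Fkbp5 from 9.71, 9.28 and 9.50 to 7.92, 7.88 and 7.75. Fkbp5 returned to its 0 h level of 7.96 ± 0.43, whereas Tsc22d3 went below its own of 10.14 ± 0.20. The members that rose were Angptl4 (1.65), Serpina3n (1.16), Cebpb (0.30) and Lcn2 (2.99), of which Lcn2 is also a neutrophil marker.

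Circadian clock genes had the lowest median of all lists, -0.87, with 15 of 19 falling and none rising. Wee1 (-1.68), Hlf (-1.54), Cry2 (-1.46) and Per1 (-1.09 ± 0.10) fell. Ciart, a repressor of the clock, fell from 9.90, 9.68 and 10.11 to 8.91, 9.28 and 8.63, with all 24 h arrays below all 2 h arrays (-0.96 ± 0.15, limma adjusted p = 1.4e-05). Arntl (-0.61) and its repressor Nr1d1 (-0.38) both fell. In wild type 16 of the 19 fell. The labels give no hour of day, so the hour of sampling and the time after wounding cannot be told apart. The Ciart promoter, at chr3:95882229-95882478 on the minus strand of GRCm38.p6, is printed because it holds 3 E-boxes, in capitals, starting 116, 58 and 44 bases before the start.
Ciart: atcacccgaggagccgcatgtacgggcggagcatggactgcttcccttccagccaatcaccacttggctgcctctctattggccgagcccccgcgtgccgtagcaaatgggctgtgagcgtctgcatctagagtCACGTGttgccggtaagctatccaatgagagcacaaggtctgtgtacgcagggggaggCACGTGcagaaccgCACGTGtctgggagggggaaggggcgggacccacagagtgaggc
The letters CACGTG were found in 4 of 13 fallen clock genes with an entry (Per1, Tef, Ciart and Bhlhe41) and in 1 of 3 others, against 8.09% of all genes.

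Markers of cartilage, nerve, skeletal muscle and pigment cells were mostly lower at 24 h than at 2 h. Cartilage genes fell in 14 of 21 and rose in 1 (median -0.54), with Hapln1 at -1.34, Ucma at -1.30 and aggrecan (Acan) at -1.08; collagen 2 (Col2a1) gave -0.14 and was not past the test. Nerve and Schwann cell genes fell in 9 of 12, led by Cdh19, which went from 6.92, 6.75 and 6.5 to 4.62, 4.95 and 5.16 (-1.81 ± 0.13). Skeletal muscle genes fell in 23 of 37 (median -0.38), with Myh2 at -1.14 and Acta1 at -0.20 (adjusted p = 0.0734). Of 12 melanocyte genes 9 fell in cub and 1 in wild type, but the difference between the genotypes passed the test for only 1, Dct. In cub the mean level of the list was 6.58 to 6.62 at 0 h, 7.08 to 7.36 at 2 h and 6.69 to 6.83 at 24 h. In wild type it was 6.61 to 6.69, 6.63 to 6.88 and 6.64 to 6.88, so the genotypes already differed at 2 h. Dct, the pigment enzyme, measured 8.97, 8.48 and 8.72 at 2 h and 7.70, 7.81 and 7.55 at 24 h, close to its 0 h mean of 7.67 ± 0.14. Of 19 adipocyte genes 4 fell (21.1%, against 23.4% of all genes) and 15 did not pass the test, with a median of -0.29. Without the second 2 h array 3 fell, and the median was -0.13. The adipokine gene Adipoq stood at 7.72, 8.65 and 7.71 and then at 7.27, 7.45 and 7.62 (-0.58, adjusted p = 0.109, and -0.27 without that array). Of 22 endothelial genes 5 rose (22.7%, against 18.8% of all genes) and 7 fell (31.8%, against 23.4%). Vwf fell by 0.71, and the vessel sprouting genes Aplnr (0.76), Apln (0.75) and Angpt2 (0.68) rose. The share of each tissue in a biopsy was not measured.

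The same interval was compared between genotypes with the 6 wild-type arrays, which share no array with cub. There 8284 genes changed (41.5%), 4209 up (21.1%) and 4075 down (20.4%). Of these, 6652 were called in both genotypes with the same sign, 79.1% of the cub calls and 80.3% of the wild-type calls, and 13 with opposite signs. Across genes the 2 sets of differences correlated with r = 0.926, where genes are not independent replicates. The difference between the cub change and the wild-type change passed the test for 136 genes (0.682%), 30 higher in cub (0.15%) and 106 lower (0.532%). That count depended on single arrays. It was 40 without the first, 221 without the second and 92 without the third cub array at 2 h, and 77, 302 and 69 without the first, the second and the third at 24 h. Without a wild-type array it was 68 or 60 (the second or the third at 2 h), 86 (first at 24 h) or within 1.5 times of 136. Scaling moved the split: 22.1% of the calls were higher in cub, against 38.5% with median-centring and 40% with quantile normalization.

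**Figure D4:**
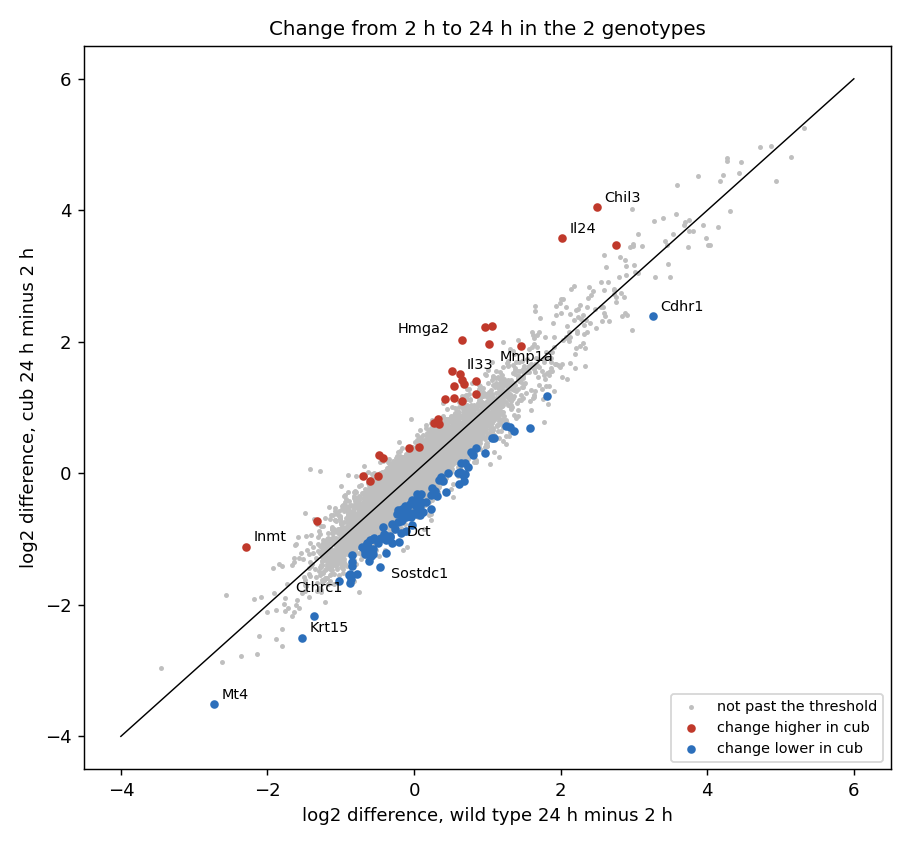
Log2 difference from 2 h to 24 h in cub (vertical axis) against wild type (horizontal axis), 1 point per gene, with the line of equal change. Red points mark the 30 genes whose change was higher in cub and blue points the 106 whose change was lower, with Il24, Chil3 and Hmga2 above the line and Krt15, Mt4 and Cdhr1 below it.

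Il24 and Chil3 differed most. Wild-type Il24 rose from 5.22, 5.18 and 5.42 to 7.32, 7.19 and 7.38, so every cub array at 24 h exceeded every wild-type one, and the cub change was greater by 1.55 ± 0.16 (limma adjusted p = 7.19e-05). Chil3 rose by 2.5 in wild type and by 4.05 in cub (difference 1.55 ± 0.19, adjusted p = 0.00039). The mean level of the monocyte and macrophage markers, a list that holds Chil3, was 8.51 to 8.81 in the cub arrays and 8.08 to 8.47 in the wild-type arrays at 24 h, and the part of these cells in the difference was not tested. Hmga2 rose by 0.66 in wild type and by 2.03 in cub, and the difference was 1.37 ± 0.15 (adjusted p = 0.00016). All 3 calls held in all 21 alternatives. The change was also greater in cub for the interstitial collagenase Mmp1a (0.94), for Il33 (0.88), for the kinin receptor Bdkrb1 (0.71) and for Nrg1 (0.55 ± 0.12, adjusted p = 0.0452, called in 9 of 21 alternatives). The Il33 difference included the start: wild-type Il33 lay at 9.91, 9.96 and 10.01 at 2 h, above the cub 2 h arrays, and at 10.69, 10.38 and 10.68 at 24 h.

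Lower changes in cub were found for Krt15 (-0.97 ± 0.17, limma adjusted p = 0.0105), Sostdc1 (-0.96), Mt4 (-0.79) and Gata3 (-0.64), all of which fell in both genotypes and fell further in cub. These calls held in 17 of 21 alternatives for Sostdc1, 19 for Krt15 and Mt4 and all 21 for Gata3. Il20ra fell by 1.66 in cub and 0.88 in wild type (difference -0.79 ± 0.18, adjusted p = 0.0465, called in 5 of 21 alternatives). Cdhr1, a cadherin family gene, rose less in cub (2.39 against 3.26), and the difference held in all 21 alternatives. In the replication list all 34 genes rose in wild type (median 0.81) against 23 in cub, and the difference passed for Orc1 (-0.72) and Mcm7. In the division list 21 rose in wild type, and Ccne1 (-0.53), Aurka, Ccne2 and Cdca8 had a lower change in cub. Of these cell cycle genes, Ccne1 kept its call in 20 of 21 alternatives and the others in 5 (Aurka) to 8 (Orc1 and Cdca8). Of the 106 genes with a lower change, 80 fell in cub, 28 of which were not called in wild type, and 31 rose in wild type. Of the 30 with a higher change, 24 rose in cub.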

How the data were processed

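Total RNA from the wound rims was labelled with biotin and measured on Affymetrix Mouse Gene 1.0 ST arrays, 1 array per mouse. The authors deposited log2 signals, normalized together with RMA in Expression Console 1.1, per the submitters' processing notes. The summarization level, annotation release and genome build behind them are not given in the sources used here.

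Of 35556 probe set rows, 21789 carried 1 gene symbol in the platform annotation, 1621 several and 12146 none; 999 genes had several rows and were represented by the one of highest average signal, so that 19938 genes were tested. No value was removed or imputed. Limma 3.58.1 in R 4.3.3 (lmFit and eBayes) was fitted to all 23 arrays with 1 mean for each of the 8 groups (15 residual degrees of freedom), and the Benjamini-Hochberg adjustment of p-values ran over all of them. The script was tested on simulated data. The series' design text names R/maanova, which was not run. RMA takes the overall signal as equal between arrays, so a change shared by most genes would not show.

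Gene lists (40, with 1011 different genes, 929 of them tested) are described by counts and medians with no set test. Members, lists and comparisons were chosen with earlier results of these data known. Named genes are the 15 largest rises and 15 largest falls without overlapping arrays, up to 4 members per list and direction, the 8 largest genotype differences each way and 37 fixed genes, a rule that takes in 295 genes, of which the text gives a part. A further 60 genes were named after their values were seen, as were the CRE variant and the E-box searches. Promoter windows are RefSeq's (27025 genes, GRCm38.p6). The alternatives tried were the scaling of arrays, a filter on low signal, every row, the arrays in the fit, a replicate block, the moderation, array weights, other probe sets and leaving out each array.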

Additional observations from a re-analysis of the deposited data

Results flagged for a closer look

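The interaction test of the same limma fit (adjusted p below 0.05) called a genotype difference in the change for 136 genes. Only those among the named genes are given below. Each value is the cub change from 2 h to 24 h minus the wild-type change on the log2 scale. The change was greater in cub for the cytokines Il24 (1.55) and Il33 (0.88), the chitinase-like Chil3 (1.55) and the collagenase Mmp1a (0.94). It was also greater for the chemerin-binding receptor Ccrl2 (1.04), the kinin receptor Bdkrb1 (0.71) and the ErbB ligand Nrg1 (0.55). The chromatin protein Hmga2 (1.37), the carbonic anhydrase Car4 (1.26) and Psg18 of the pregnancy-specific glycoprotein family (1.18) had a greater change too. The methyltransferase Inmt (1.18) fell in both genotypes and fell less in cub.

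Epidermal and appendage genes had a lower change in cub: Krt15 (-0.97), Sostdc1 (-0.96), Mt4 (-0.79), Il20ra (-0.79), Gata3 (-0.64), the Wnt target Axin2 (-0.48) and the receptor inhibitor Lrig3 (-0.47). So did the glutathione peroxidase Gpx2 (-0.90), the cadherin family gene Cdhr1 (-0.87), the pigment enzyme Dct (-0.83), Lrrc17 (-0.81) and the chaperone Hspa1a (-0.68). The ER retention receptor Kdelr3 (-0.84), the collagen prolyl hydroxylase P4ha2 (-0.75) and Cthrc1 (-0.75) also had a lower change in cub.

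The other named genes with a lower change in cub were cell cycle genes. They were the mitotic entry regulator Fbxo5 (-0.81), the origin subunit Orc1 (-0.72) and the cyclins Ccne2 (-0.70) and Ccne1 (-0.53). The chromosomal passenger Cdca8 (-0.70), Mcm7 (-0.47) and the kinase Aurka (-0.46) were the others. Fbxo5, Ccne2 and Cdca8 rose in wild type and were not called in cub. For Cthrc1 and Dct the groups already differed at 2 h: Cthrc1 measured 9.19 to 9.57 in cub and 7.99 to 8.53 in wild type, and Dct 8.48 to 8.97 and 7.73 to 7.91. The calls held in all 21 alternatives for Il24, Chil3, Mmp1a, Bdkrb1, Hmga2, Car4, Gata3, Cdhr1 and Hspa1a, in 20 for Il33, Psg18 and Ccne1, and in 19 for Ccrl2, Krt15 and Mt4. They held in 18 for P4ha2, 17 for Sostdc1, 14 for Kdelr3 and 11 for Dct. The remaining calls were lost in most alternatives: they held in 9 for Nrg1 and Fbxo5, 8 for Lrig3, Orc1 and Cdca8, 7 for Axin2, Lrrc17 and Cthrc1, 6 for Ccne2 and Mcm7, 5 for Il20ra and Aurka, 4 for Gpx2 and 3 for Inmt. Groups of 3 arrays were not tested for a sample far from the others.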

How the results depend on the processing

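The count of genes changed in cub (8412) lay between 8225 and 8813 under the settings that keep all 23 arrays and all 19938 genes. It was 7599 with only the 6 arrays compared and 7604 to 8042 with single arrays left out. Fitted over every row of the table, 10651 of 35556 rows changed, and that setting counts rows and not genes. With median-centring 53.8% of the calls rose, against 44.6%, and the median of all genes moved from 0.01 to 0.06. The wild-type count without single arrays was 7533 to 7776. The number of genotype differences (136) became 64 over every row of the table, 19 with only the arrays compared, 52 without empirical Bayes moderation and 284 with array weights, and ranged from 40 to 302 without single arrays; the cause was not tested. Of 330 named genes past the threshold, 303 kept their call and direction in every alternative.

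The differences that changed sign belonged to genes not past the test. With median-centring they were 0.0433 for Adam17, 0.0367 for Ccne2, 0.0167 for Cdca8, 0.0067 for Fosl1, 0.02 for Keap1 and 0.0167 for Mpo. With quantile normalization they were 0.019 for Adam17, 0.0457 for Ccne2, 0.0121 for Cdca8 and 0.0253 for Keap1. With single arrays left out, the range was -0.0333 to 0.02 for Adam17, -0.075 to 0.065 for Ccne2, -0.13 to 0.02 for Cdca8, -0.1033 to 0.0267 for Fosl1, -0.235 to 0.315 for Il6, -0.0767 to 0.04 for Keap1, -0.0717 to 0.1733 for Krt1, -0.0733 to 0.0217 for Mpo, -0.005 to 0.045 for Mt2 and -0.0617 to 0.2733 for Top2a.

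With the replicate number as a block, 8285 genes changed in cub, 8172 in wild type and 105 differed between genotypes. The deviations of same-numbered cub arrays at 2 h and 24 h correlated at -0.17, -0.37 and -0.11, and those of arrays with unlike numbers at -0.17 to 0.29. With 3 arrays per time these values cannot decide whether arrays of the same number share anything else. The table gives no detection call, so for genes near the bottom of the scale at 2 h, such as Il24, Cxcl5, Chil3 and Ly6g, a fold is that of the signals. After a filter on low signal (some group averaging 6 or more), 8065 of the 13741 genes left changed.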

Other observations

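Among the genes with the largest changes were some that belong to none of the lists. Gsdmc, a pore-forming gasdermin of epithelia, measured 5.53, 5.93 and 6.22 in cub at 2 h and 10.18, 10.27 and 10.37 at 24 h. No array overlapped, the 0 h mean was 5.91 ± 0.25 (SD, n = 3), and Gsdmc rose by 4.38 ± 0.37 (limma adjusted p = 3.75e-09). The gene 2610528A11Rik went from 8.32, 8.30 and 8.38 to 12.81, 12.77 and 12.75 (4.44 ± 0.39, limma adjusted p = 5.97e-09), among the highest signals of the 24 h arrays. In both genes the 3 wild-type arrays at 24 h lay close to the cub values, with a mean of 10.26 ± 0.02 for Gsdmc.

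Several of the deepest falls were of genes whose 2 h minus 0 h difference did not pass the test. Mrgprb3, a receptor of the Mas-related family, stood at 8.43, 8.54 and 8.48 at 2 h and at 5.89, 6.20 and 5.79 at 24 h (-2.52 ± 0.17, limma adjusted p = 1.83e-10), after a 0 h mean of 8.64 ± 0.17. The glucose transporter gene Slc2a12 measured 9.46, 9.42 and 9.41 and then 6.97, 7.53 and 7.30 (-2.16 ± 0.09), and Bbox1, whose product makes carnitine, 10.85, 10.74 and 10.78 and then 8.55, 8.98 and 8.5 (-2.11 ± 0.10). Kazald1 (-2.36), Angptl1 (-2.10) and the secreted carbonic anhydrase Car6 (-2.10) fell as well. For each of these 6 genes every 24 h array lay below every 2 h array, and the fall kept its sign and its call in all 15 alternatives. Their 2 h minus 0 h differences in cub ran from -0.22 for Slc2a12 to 0.07 for Angptl1, with adjusted p of 0.109 or more.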
